A study of Mus musculus with 30 samples.

Results

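Feces of 6 mice that received the high-fructose diet together with tyrosol were compared with feces of 6 mice on the control diet, by sequencing of the bacterial 16S rRNA gene. The members were chosen by group, and they are 12 of the 30 mice of the series. All were female C57BL/6 mice with a labelled age of 6 weeks. Control mice ate the normal diet and were given saline by gavage daily, and tyrosol mice ate a diet of 60% fructose and were given tyrosol at 23 mg/kg by gavage. Feeding lasted 8 weeks by the description of the protocol, while other passages on the same mice give 12 weeks or 84 days. The 6 model mice, which ate the fructose diet and were given saline, are shown beside these groups where they help to place a value. Since control and tyrosol mice differed in diet and in compound, the contributions of fructose and of tyrosol cannot be told apart in this comparison. The labels name no cage and no sequencing batch, and no measurement in the tables checks which mouse received tyrosol. Mice are called by their group and the number in the sample label.

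Tyrosol is a phenylethanoid of olive oil and of Rhodiola, and it is the part of salidroside that remains when the sugar is removed. Most bacteria of the mouse large intestine are obligate anaerobes. Members of the Bacteroidales, among them the family S24-7, degrade plant and host polysaccharides. Clostridiales ferment sugars and fibre to short-chain fatty acids. Akkermansia and Mucispirillum live in or on the mucus that covers the epithelium, and Lactobacillus produces lactic acid. A 16S survey measures the share that each taxon takes of the counts of a mouse, so a share can fall because another taxon grew, and the number of bacteria per gram is unknown. The unit of the tables, 1 exact sequence, is an amplicon sequence variant (ASV), and a name in brackets, or with "unidentified" or "unclassified", is used as the deposited taxonomy gives it.

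The filtered table held 41862 to 83876 counts per control mouse and 88185 to 106609 per tyrosol mouse, and the totals did not overlap (exact permutation test, p = 0.0022, the smallest p that 6 against 6 mice allow). Control mice kept 65.3% ± 5.67 (SD, n = 6) of their merged reads through the authors' chimera removal and tyrosol mice 79.6% ± 7.48 (difference 14.3 percentage points, exact permutation test, p = 0.0065). The part of this step in the results below was not tested. A count of 0 allows a share of up to 0.00717% in the shallowest control mouse and 0.0034% in the shallowest tyrosol mouse, and such limits and the 95% intervals cover counting error only. Control mouse 6 stood apart from the other control mice. Its mean Bray-Curtis distance was 0.861 to the other control mice and 0.638 to the tyrosol mice, and it was the 1 of 6 control mice that lay nearer to the tyrosol mice. Counts of calls without it are given below, and fold changes with any 1 mouse left out stand after the genera.

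Diversity of ASVs was lower in the tyrosol mice by the Shannon, Simpson and Pielou indices and by the number of ASVs, in the table with all ASVs. The Shannon index (base 2, table rarefied to 39768 counts) was 5.45 to 6.88 in control mice with a median of 6.29, and 4.30 to 5.87 in tyrosol mice with a median of 5.02. The means were 6.25 ± 0.461 and 5.14 ± 0.581 (SD, n = 6), and differed by -1.10 (p = 0.0065 by the exact permutation test, adjusted p = 0.0195 over 6 indices). A tyrosol mouse had the higher index in 2 of 36 pairs of mice, both of them pairs with control mouse 6. Simpson's index, which weights the leading ASVs, was 0.939 ± 0.0235 in control and 0.872 ± 0.0467 in tyrosol mice (n = 6, exact permutation test, p = 0.0043, adjusted p = 0.0195). Pielou evenness was 0.619 ± 0.0358 against 0.533 ± 0.0508 (n = 6, exact permutation test, p = 0.0108, adjusted p = 0.0216).

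The number of ASVs fell while the number of genera rose. Control mice had 879 to 1320 ASVs (mean 1103 ± 194) and tyrosol mice 661 to 983 (mean 803 ± 136), and the means differed by -299 (p = 0.0173 by the exact permutation test, n = 6, adjusted p = 0.026). Summed to genera, the same table held 98 to 112 genera per control mouse (mean 105 ± 5.98) and 102 to 135 per tyrosol mouse (mean 123 ± 13.3), a difference of 18 genera (n = 6, exact permutation test, p = 0.0216, adjusted p = 0.0433 over the 6 indices at genus level). The tyrosol mouse had more genera in 31 of 36 pairs. Model mice had 788 ± 175 ASVs and 133 ± 27.0 genera (SD, n = 6).

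**Figure D1:**
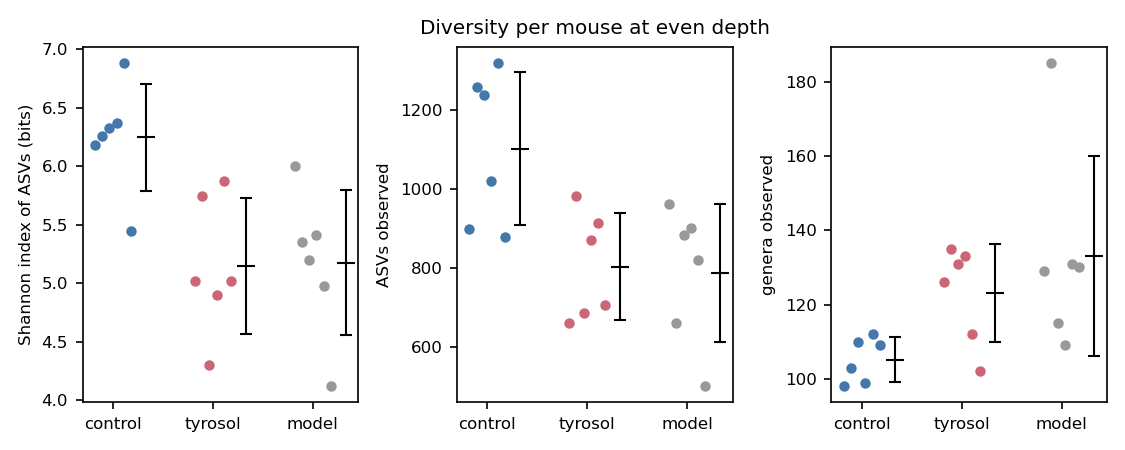
Shannon index of ASVs in bits, number of ASVs and number of genera in the rarefied table, 1 point per mouse, with the mean and SD of 6 mice beside the points. Control mice are above tyrosol mice in the Shannon index in 34 of 36 pairs, while the number of genera is higher in tyrosol mice in 31 of 36 pairs; the vertical axes do not start at 0.

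Chao1, an estimate of the total number of ASVs, was 1316 ± 298 in control and 1028 ± 173 in tyrosol mice (SD, n = 6), and the difference of -288 did not pass the test (exact permutation test, p = 0.0823, adjusted p = 0.0987). It was under the threshold without control mouse 1 (-351, exact permutation p = 0.0455) or control mouse 6 (-345, exact permutation p = 0.0476), though not by a doubled one-sided exact p, an alternative chosen after seeing the data (0.0519 in both). Good's coverage was 0.992 ± 0.00274 and 0.994 ± 0.00101 (n = 6, exact permutation test, p = 0.193). The difference in Shannon index did not pass the test in 2 other views of the same table. When ASVs of a list of obligate aerobes, chiefly Acinetobacter, were left out of the table, the Shannon index was 5.75 ± 0.892 in control and 5.71 ± 0.80 in tyrosol mice (difference -0.04, n = 6, exact permutation test, p = 0.933). In that view the differences of Simpson's index and of Pielou evenness turned sign, to 0.0120 (exact permutation test, p = 0.639) and 0.0324 (exact permutation test, p = 0.457), and the number of ASVs did not pass either (-319, exact permutation test, p = 0.0584). At genus level the Shannon index was 3.12 ± 0.588 and 2.85 ± 0.570 (difference -0.27, n = 6, exact permutation test, p = 0.422), and neither Simpson's index (-0.135, exact permutation test, p = 0.0974) nor Pielou evenness (-0.0537, exact permutation test, p = 0.299) passed.

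Numbers of ASVs are given by family as a description. In the rarefied table, S24-7 held 345 ± 289 ASVs per control mouse and 22.8 ± 14.8 per tyrosol mouse (SD, n = 6, exact permutation test, p = 0.0152, adjusted p = 0.102 over 27 families). Lactobacillaceae held 59.2 ± 32.0 and 20.7 ± 15.1 (n = 6, exact permutation test, p = 0.0325, adjusted p = 0.175). In the other direction, Staphylococcaceae held 15.2 ± 13.6 and 85.8 ± 51.3 (n = 6, exact permutation test, p = 0.0043, adjusted p = 0.0584) and Enterococcaceae 7.67 ± 6.83 and 43.7 ± 12.2 (n = 6, exact permutation test, p = 0.0022, adjusted p = 0.0584). None of the 27 families passed the test after adjustment. For Enterococcaceae the tyrosol mouse had more ASVs in 36 of 36 pairs.

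The communities of the 2 groups differed as a whole. Group explained a share of 0.318 of the squared Bray-Curtis distances (R2, exact permutation test over 924 assignments, p = 0.0043). The mean distance to the group centroid was 0.379 in tyrosol and 0.502 in control mice, a difference that did not pass the test (exact permutation test, p = 0.0541), though it did without tyrosol mouse 3 (-0.12, exact permutation test, p = 0.0498) or tyrosol mouse 6 (-0.198, exact permutation test, p = 0.0152). Tyrosol mice were at a mean distance of 0.882 ± 0.0351 (SD, n = 6) from control mice, 0.636 ± 0.142 from model mice and 0.580 ± 0.108 from each other. All 6 tyrosol mice lay nearer to the model mice than to the control mice. Without control mouse 6, R2 was 0.400.

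**Figure D2:**
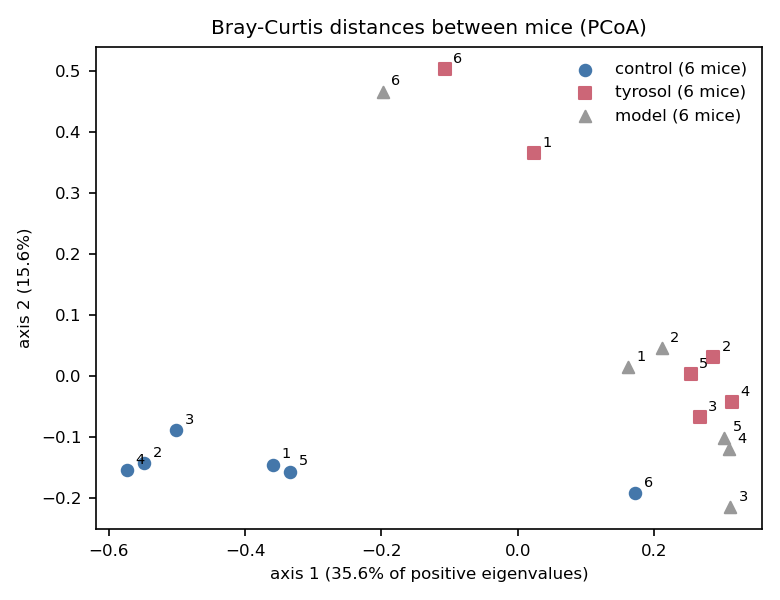
Principal coordinates of Bray-Curtis distances between ASV profiles of control, tyrosol and model mice, 1 point per mouse, numbered as in the labels, with the percent of the positive eigenvalues on each axis (35.6% and 15.6%). Control mice 1 to 5 lie on the left, control mouse 6 lies on the right with 4 of the tyrosol mice, and tyrosol mice 1 and 6 lie at the top.

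At the phylum level, Actinobacteria and Verrucomicrobia rose and Bacteroidetes fell, while Firmicutes and Proteobacteria did not pass the test. Actinobacteria took 0.27% to 1.90% of counts in control mice (median 1.35%) and 1.92% to 6.87% in tyrosol mice (median 4.50%). The groups did not overlap, and the means were 1.25% ± 0.606 and 4.52% ± 1.97 (n = 6, exact permutation test, p = 0.0022, adjusted p = 0.0054 over 5 phyla). Without the genus Collinsella, Actinobacteria took 1.25% ± 0.606 and 1.49% ± 1.05 (n = 6, exact permutation test, p = 0.639). Verrucomicrobia, the phylum of Akkermansia, had no count in any control mouse and 0.0333% to 3.78% in tyrosol mice (mean 1.20% ± 1.49, n = 6, exact permutation test, p = 0.0022, adjusted p = 0.0054). Without any 1 control mouse that call was lost (exact permutation test, p = 0.0628), while the doubled one-sided exact p was 0.0043 in all 12 ways to leave out a mouse.

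Bacteroidetes took 21.6% ± 19.3 in control and 1.47% ± 1.28 in tyrosol mice (n = 6, exact permutation test, p = 0.0281, adjusted p = 0.0469). Control mice 2, 3 and 4 had 37.4% to 39.9% and control mouse 5 had 9.85%. Control mice 1 and 6 had 2.25% and 0.58%, within the tyrosol range of 0.239% to 3.77%. The call did not survive when any 1 tyrosol mouse was left out, with differences from -24.3 to -16.4 percentage points over all 12 ways to leave out a mouse. By the doubled one-sided exact p it was lost without control mouse 2, 3, 4 or 5 or tyrosol mouse 6. Firmicutes took 42.2% ± 17.2 and 41.0% ± 30.01 (n = 6, exact permutation test, p = 0.942) and Proteobacteria 34.5% ± 35.7 and 50.9% ± 31.2 (n = 6, exact permutation test, p = 0.396). With the listed aerobes left out of the table both directions turned, to a difference of 25.1 percentage points for Firmicutes (exact permutation test, p = 0.0022) and -16.9 for Proteobacteria (exact permutation test, p = 0.171). Tyrosol mouse 6 had 90.6% Firmicutes and 2.19% Proteobacteria, whereas tyrosol mice 2 to 5 had 63.99% to 78.6% Proteobacteria.

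**Figure D3:**
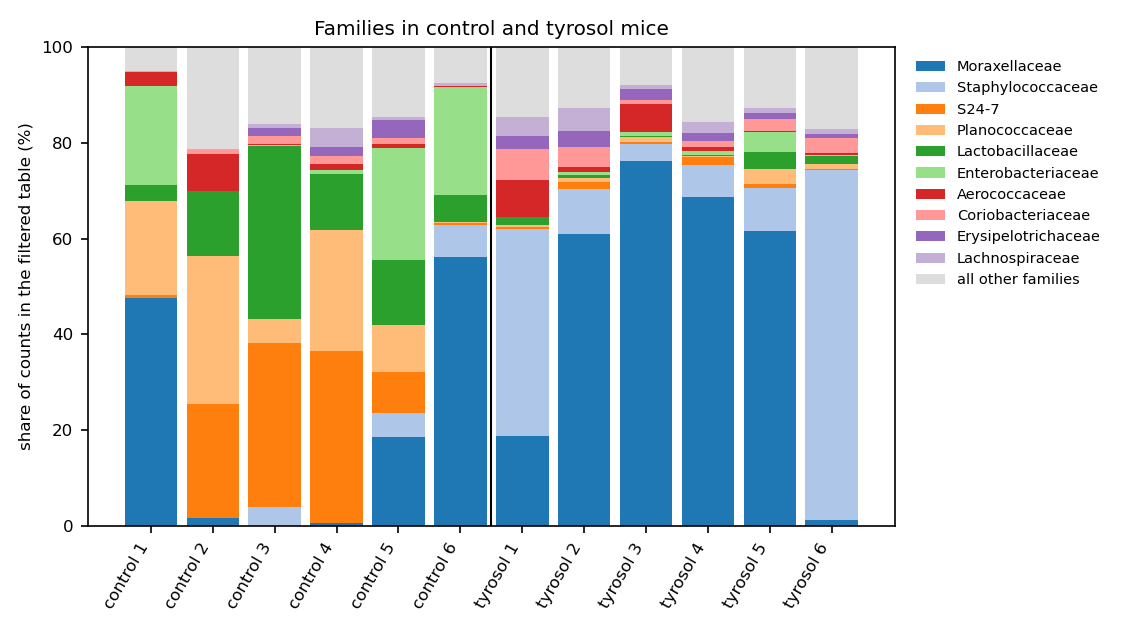
Share of counts (percent, filtered table) taken by the leading families in each of the 12 mice, stacked to 100%. S24-7 and Planococcaceae are wide in most control mice and narrow in all tyrosol mice, while Moraxellaceae leads in tyrosol mice 2 to 5 and Staphylococcaceae in tyrosol mice 1 and 6.

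Counts of families entered the quasi-likelihood test of edgeR, and a taxon is said to differ, rise or fall where its Benjamini-Hochberg adjusted p was under 0.05. Of 57 families tested, 15 differed (26.3%), 7 of them higher (12.3%) and 8 lower (14.0%) in tyrosol mice. The shares of 4 families did not overlap between the groups (7.02%), and all 4 were higher in tyrosol mice. A family that entered the test through 1 group alone had to differ in level, and its p is a description: 3 of the 7 higher families had no control mouse at 10 counts and 4 of the 8 lower ones no tyrosol mouse at 10 counts. With library totals in place of TMM scaling, 5 families were higher and 9 lower. Without control mouse 6, 26 of 54 families differed, and without control mouse 3, 8 of 52.

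The 4 families without overlap were Verrucomicrobiaceae, Christensenellaceae, [Mogibacteriaceae] and Eubacteriaceae. Verrucomicrobiaceae and Christensenellaceae had 0 counts in every control mouse. Against the floor of 3 counts per control mouse, the mean share of Verrucomicrobiaceae in tyrosol mice was at least 271-fold higher (edgeR, adjusted p = 0.00052), or at least 154-fold without the tyrosol mouse with most of it. Christensenellaceae, anaerobes of the Clostridiales, took 0.0671% ± 0.0627 in tyrosol mice (n = 6, edgeR, adjusted p = 0.00061), at least 15.1-fold higher, or 9.61-fold without the highest mouse. [Mogibacteriaceae] rose from 0.00752% ± 0.00633 to 0.402% ± 0.279 (n = 6, log2 fold change 5.76 ± 1.26 SE, edgeR, adjusted p = 0.0021). Eubacteriaceae were found in 1 of 6 control mice and in all 6 tyrosol mice (log2 fold change 5.51 ± 1.42, edgeR, adjusted p = 0.0074). All 8 control counts lay in control mouse 5, and without it the tyrosol mean was at least 15.7-fold above the floor.

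Staphylococcaceae took the most counts of any family that rose. They took 0.105% to 6.71% in control mice (median 2.07%) and 3.50% to 73.2% in tyrosol mice (median 9.23%), with a log2 fold change of 3.66 ± 1.32 (edgeR, adjusted p = 0.0434). The ranges overlapped, and the call held without control mouse 6, tyrosol mouse 3 or tyrosol mouse 5 and was lost without any of the other 9 mice, with an adjusted p of up to 0.319. Deferribacteraceae, the family of the mucus dweller Mucispirillum, rose by 5.40 ± 1.54 on the log2 scale (edgeR, adjusted p = 0.0142), and the call was lost without control mouse 3, control mouse 4 or tyrosol mouse 6, with an adjusted p of up to 0.174. Unclassified Lactobacillales rose by 3.11 ± 0.99 (edgeR, adjusted p = 0.0261), lost without control mouse 1, control mouse 4 or tyrosol mouse 5.

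The 8 families that fell included 3 of the Bacteroidales. S24-7 took 0.374% to 35.8% in control mice (median 16.1%) and 0.145% to 1.71% in tyrosol mice (median 0.607%). The log2 fold change was -4.01 ± 1.18 (edgeR, adjusted p = 0.0165), and the call held without any 1 mouse. The low values of control mice 1 and 6, 0.686% and 0.374%, lay within the tyrosol range. Rikenellaceae fell from 0.627% ± 0.441 to 0.0307% ± 0.0258 (n = 6, log2 fold change -3.81 ± 1.27, edgeR, adjusted p = 0.0342). That call was lost without control mouse 3 or tyrosol mouse 1, 2 or 3, with an adjusted p of up to 0.0561. Prevotellaceae held 1927 counts in control mice and 2 in tyrosol mice, a ratio of 1333 per total count (95% interval 369 to 11018, exact, counting error only, edgeR, adjusted p = 0.00061). Both tyrosol counts lay in tyrosol mouse 4, and without it the family was at least 140-fold lower. Control mouse 2 held 879 of the control counts, and without it the ratio was 872 (95% interval 241 to 7209).

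Planococcaceae, a family of aerobic rods and cocci common in soil and feed, fell from 15.1% ± 12.1 to 1.17% ± 0.990 (n = 6, log2 fold change -3.34 ± 1.19, edgeR, adjusted p = 0.043). The call held without control mouse 4, control mouse 6 or tyrosol mouse 5 and was lost without any of the other 9 mice, with an adjusted p of up to 0.0983. Helicobacteraceae fell from 1.12% ± 0.893 to 0.151% ± 0.113 (n = 6, log2 fold change -2.68 ± 0.93, edgeR, adjusted p = 0.0394), lost without control mouse 3 or tyrosol mouse 1, 3, 5 or 6. Clostridiaceae fell from 0.125% ± 0.104 to 0.00132% ± 0.00324 (n = 6, log2 fold change -6.08 ± 1.54, edgeR, adjusted p = 0.0073). All 7 tyrosol counts lay in tyrosol mouse 6, and without it the family was at least 42.0-fold lower. F16, a family of the phylum TM7, had 634 counts in 5 control mice and unidentified RF39, of the Tenericutes, had 140 in 4, and both had 0 in every tyrosol mouse. Control mouse 6 also had 0 counts of F16.

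Of 102 genera tested, 45 differed between the groups (44.1%), 22 of them higher (21.6%) and 23 lower (22.5%) in tyrosol mice. The same limit holds for the p of 10 of the 22 genera that rose, with no control mouse at 10 counts, and of 10 of the 23 that fell, with no tyrosol mouse at 10 counts. Among them are the genera below with 0 counts in every mouse of a group. Collinsella, Subdoligranulum and Clostridium of the Clostridiaceae are also among them. The shares of 18 genera did not overlap (17.6%). Of these, 16 were among the 22 that rose and 2 among the 23 that fell. In 12 of the 23 genera that fell, control mouse 6 had 0 counts. Without that mouse, 55 of 99 genera differed, 23 higher and 32 lower.

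**Figure D4:**
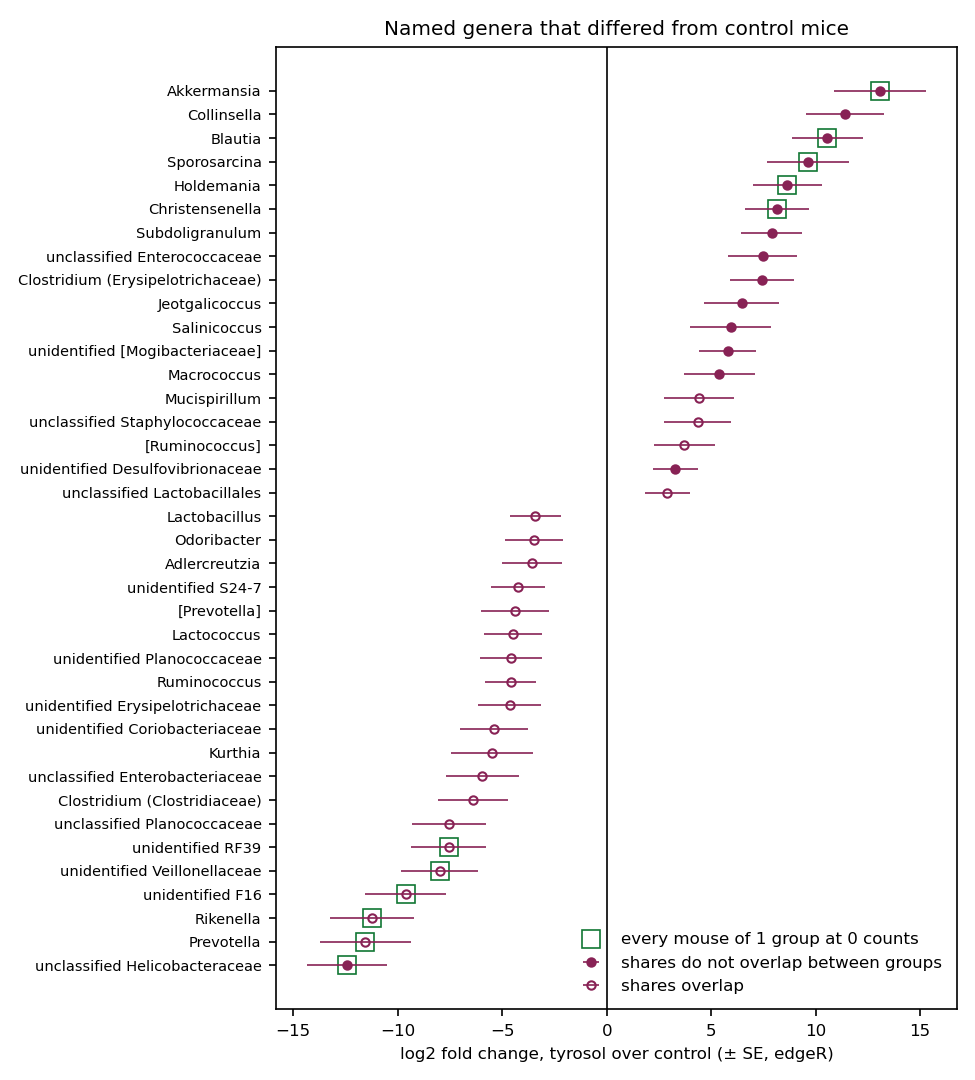
Log2 fold change of tyrosol over control mice with its SE (edgeR) for the 38 named genera that differed. Filled points mark genera in which the ranges of the groups stayed apart, and squares mark the 11 genera with 0 counts in every mouse of a group, whose fitted value depends on the prior count and is no measure of size; 18 genera lie above 0 and 20 below.

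Akkermansia, which degrades mucin, had 0 counts in the 6 control mice and 35 to 3417 counts in the 6 tyrosol mice, with the lowest values in tyrosol mice 2 and 6. Its mean share in tyrosol mice was 1.20% ± 1.49 (n = 6), and 91.8% of its counts there belonged to 1 ASV named Akkermansia muciniphila. It was at least 271-fold higher than the control floor (edgeR, adjusted p = 0.00055), or at least 154-fold without the highest mouse. Model mice held it too, at 1.07% ± 2.12 (n = 6), and the fit of tyrosol against model gave a log2 fold change of 0.72 ± 1.37 (edgeR, adjusted p = 0.773).

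Collinsella, a sugar-fermenting anaerobe of the Actinobacteria, had 3 counts in control mouse 6 and 0 in the other 5 control mice. In tyrosol mice it took 0.891% to 6.51% (median 2.75%), and the mean of 3.03% ± 2.07 (n = 6) compares with 4.52% for all Actinobacteria. The ratio of pooled counts was 4208 (95% interval 1440 to 20406, exact, counting error only, edgeR, adjusted p = 0.00041). Without control mouse 6 it was at least 658-fold higher than the control floor. A single ASV named Collinsella stercoris held 99.0% of the genus. Model mice had 6 counts, all in 1 mouse, and Collinsella was higher in tyrosol than in model mice (log2 fold change 10.96 ± 1.81, edgeR, adjusted p = 0.00067). It entered the test against model mice through tyrosol mice alone, so that p is a description.

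Christensenella likewise had 246 counts in tyrosol mice and 0 in every control and every model mouse, at least 9.21-fold above the control floor (edgeR, adjusted p = 0.00086; against model, adjusted p = 0.0055). These were the 2 genera of 103 that differed between tyrosol and model mice (1.94%), both higher with tyrosol. Collinsella and Christensenella entered that test through tyrosol mice alone and had to differ in level, so their p against model mice is a description. Between model and control mice, 17 of 97 genera differed (17.5%). The 3 comparisons share mice and are not independent.

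Blautia, Holdemania and Subdoligranulum rose, all at or near 0 in control mice. Blautia, an acetogen of the Lachnospiraceae, had 0 counts in control mice and 24 to 347 in tyrosol mice, at least 48.6-fold higher (edgeR, adjusted p = 0.0005). Its share was 0.216% ± 0.130 in tyrosol and 0.132% ± 0.181 in model mice (n = 6). Holdemania, of the Erysipelotrichaceae, had 0 counts in control mice and 362 in tyrosol mice, at least 13.2-fold higher (edgeR, adjusted p = 0.00086), or at least 7.78-fold without the tyrosol mouse with most of it. Subdoligranulum, which includes a butyrate producer, had 1 count in control mice and 548 in tyrosol mice (ratio 396, 95% interval 70.8 to 15668, edgeR, adjusted p = 0.00055). Without control mouse 5, which had that count, it was at least 19.4-fold above the control floor, and without tyrosol mouse 4, which had 307 of the 548, the ratio was 212 (95% interval 37.7 to 8415).

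Clostridium in the Erysipelotrichaceae, mainly an ASV named Clostridium ramosum (89.5% of the genus in tyrosol mice), took 0% to 0.0378% in control mice (median 0.00494%) and 0.579% to 2.57% in tyrosol mice (median 1.15%). The groups did not overlap (log2 fold change 7.42 ± 1.52, edgeR, adjusted p = 0.00086). Unidentified [Mogibacteriaceae] went from 0.00752% ± 0.00633 to 0.402% ± 0.279 (n = 6, log2 fold change 5.80 ± 1.36, edgeR, adjusted p = 0.0024). [Ruminococcus], a Lachnospiraceae genus apart from Ruminococcus, rose from 0.0478% ± 0.0630 to 1.08% ± 1.12 (n = 6, log2 fold change 3.72 ± 1.46, edgeR, adjusted p = 0.0442). Its call was lost without tyrosol mouse 2 (edgeR, adjusted p = 0.0523).

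An unidentified genus of Desulfovibrionaceae and Mucispirillum rose as well. The genus of Desulfovibrionaceae, a family of sulfate reducers, took 0.00956% to 0.275% in control mice (median 0.119%) and 0.450% to 1.83% in tyrosol mice (median 1.34%), without overlap (log2 fold change 3.28 ± 1.08, edgeR, adjusted p = 0.019). The family did not pass the test (log2 fold change 1.64, edgeR, adjusted p = 0.202), and 1 of its 2 genera tested rose. Mucispirillum, mainly an ASV named Mucispirillum schaedleri, rose from 0.0104% ± 0.0166 to 0.337% ± 0.458 (n = 6, log2 fold change 4.41 ± 1.68, edgeR, adjusted p = 0.0386), and the call was lost without tyrosol mouse 6 (adjusted p = 0.105). Model mice had 0.462% ± 0.749 Mucispirillum (n = 6).

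Within Staphylococcaceae, salt-tolerant cocci other than Staphylococcus rose. Jeotgalicoccus took 0% to 0.375% in control mice (median 0.0209%) and 1.83% to 30.2% in tyrosol mice (median 4.34%). The groups did not overlap (log2 fold change 6.46 ± 1.80, edgeR, adjusted p = 0.008), and tyrosol mice 1 and 6 had the most, 30.2% and 24.9%. Salinicoccus rose from 0.0116% ± 0.0271 to 1.26% ± 1.91 (n = 6, log2 fold change 5.94 ± 1.94, edgeR, adjusted p = 0.018; adjusted p = 0.0532 without tyrosol mouse 6). Control mouse 6 held most of the control counts of Salinicoccus, and without it 2 counts were left, a ratio of pooled counts of 1989 (95% interval 550 to 16426, exact, counting error only). Macrococcus rose from 0.00259% ± 0.00635 to 0.201% ± 0.189 (n = 6, log2 fold change 5.38 ± 1.70, edgeR, adjusted p = 0.0158). All 13 control counts of Macrococcus lay in control mouse 6, and without it the genus was at least 43.6-fold higher than the control floor. Unclassified Staphylococcaceae rose by 4.35 ± 1.60 on the log2 scale (edgeR, adjusted p = 0.0336; adjusted p = 0.105 without tyrosol mouse 6).

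Staphylococcus of the Staphylococcaceae, mainly an ASV named Staphylococcus sciuri, took 2.56% ± 2.77 in control and 10.7% ± 15.0 in tyrosol mice (n = 6, log2 fold change 1.82 ± 1.38), which did not pass the test (edgeR, adjusted p = 0.311). In tyrosol mouse 6 it was the leading genus, with 40.6%. Counts that the taxonomy places in a Staphylococcus of the Planococcaceae did not pass either (log2 fold change 2.53 ± 1.35, edgeR, adjusted p = 0.137). Among the lactic acid bacteria, unclassified Enterococcaceae rose from 0.0132% ± 0.0268 to 1.69% ± 1.42 without overlap (n = 6, log2 fold change 7.46 ± 1.67, edgeR, adjusted p = 0.0016), while the named genus Enterococcus had 0.294% ± 0.635 and 0.547% ± 0.328 (n = 6, log2 fold change 1.48 ± 1.41, edgeR, adjusted p = 0.426). Unclassified Lactobacillales rose by 2.90 ± 1.07 on the log2 scale (edgeR, adjusted p = 0.0338). That call held without control mouse 5 and was lost without any of the other 11 mice, with an adjusted p of up to 0.177.

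Sporosarcina, an aerobic spore former of the Planococcaceae, had 0 counts in every control mouse and 4 to 328 in tyrosol mice, at least 20.4-fold above the control floor (edgeR, adjusted p = 0.0013), or at least 10.6-fold without tyrosol mouse 3, which had the most. It took 0.0904% ± 0.120 in tyrosol mice (n = 6). In model mouse 6 it took 41.9% of counts, and 3 model mice had none.

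The named genera of the Bacteroidales that differed were all lower with tyrosol. Unidentified S24-7, the only S24-7 genus in the table, had the family's values, with a log2 fold change of -4.24 ± 1.29 in the fit of genera (edgeR, adjusted p = 0.0133). Prevotella, known for degrading plant polysaccharides, had 25 to 873 counts in 5 control mice, 0 in control mouse 6 and 0 in every tyrosol mouse. Its control mean was at least 142-fold above the tyrosol floor (edgeR, adjusted p = 0.00086), or at least 91.1-fold without control mouse 2. Rikenella likewise was at 133 to 462 counts in 5 control mice and at 0 in control mouse 6 and all tyrosol mice, at least 109.9-fold lower with tyrosol (edgeR, adjusted p = 0.00073).

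Odoribacter, a producer of short-chain fatty acids, fell from 0.887% ± 0.965 to 0.0786% ± 0.0612 (n = 6, log2 fold change -3.48 ± 1.39, edgeR, adjusted p = 0.0474). All 6 tyrosol mice held it, whereas control mouse 6 did not, and 9 of 36 pairs had the tyrosol mouse higher. The call was lost without control mouse 3 or tyrosol mouse 2, 3 or 6, with an adjusted p of up to 0.1004. In model mice Odoribacter took 0.00553% (log2 fold change of model over control -7.61 ± 2.04, edgeR, adjusted p = 0.007), and the fit of tyrosol over model gave 3.63 ± 1.35, which did not pass the test (edgeR, adjusted p = 0.177). [Prevotella] fell by 4.38 ± 1.63 on the log2 scale (edgeR, adjusted p = 0.0343), lost without control mouse 2 or tyrosol mouse 3 or 6.

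Lactobacillus and Lactococcus, both lactic acid bacteria, fell. Lactobacillus took 3.39% to 36.2% in control mice (median 12.6%) and 0.132% to 3.47% in tyrosol mice (median 1.16%). The ranges met at control mouse 1, with 3.39%, and tyrosol mouse 5, with 3.47%, and a tyrosol mouse was higher in that 1 of 36 pairs. The log2 fold change was -3.41 ± 1.21 (edgeR, adjusted p = 0.029; adjusted p = 0.0538 without tyrosol mouse 2). At family level Lactobacillaceae did not pass the test (log2 fold change -2.75 ± 1.10, edgeR, adjusted p = 0.0658). Lactococcus fell from 0.474% ± 0.912 to 0.0195% ± 0.0146 (n = 6, log2 fold change -4.49 ± 1.39, edgeR, adjusted p = 0.0147), with 2.33% in control mouse 2, and the log2 fold change was -2.77 without that mouse.

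**Figure D5:**
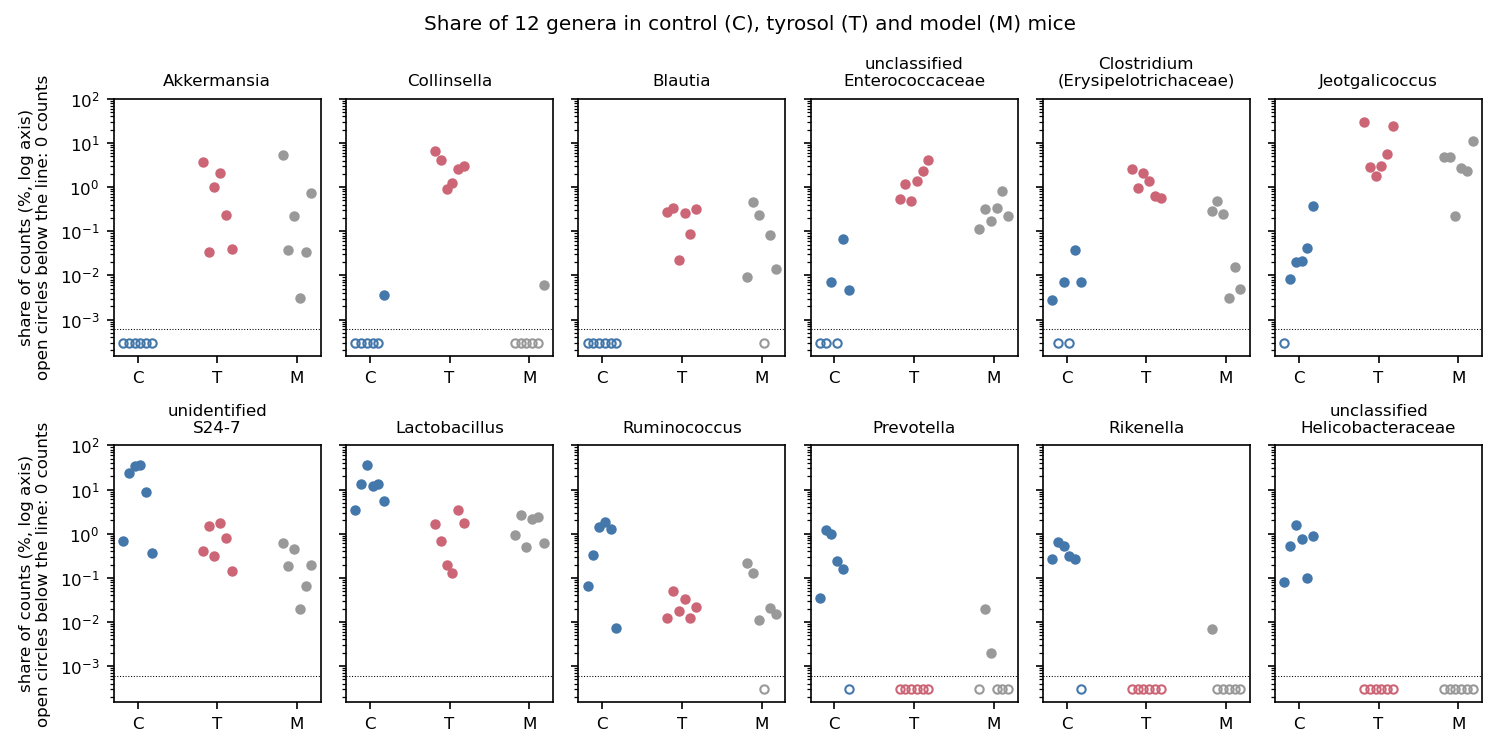
Share of counts on a log axis (percent) of 12 genera in control (C), tyrosol (T) and model (M) mice, 1 point per mouse, with mice at 0 counts drawn as open circles under the dotted line. In the upper row every tyrosol point lies above every control point, and in the lower row Prevotella, Rikenella and unclassified Helicobacteraceae are at 0 in all 6 tyrosol mice.

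Unclassified Helicobacteraceae, relatives of the spiral Helicobacter of the mucus layer, consisted of 1 ASV with 58 to 1350 counts in every control mouse, control mouse 6 included. It had 0 counts in all 6 tyrosol and all 6 model mice. The control mean of 0.662% ± 0.572 (n = 6) was at least 217-fold above the tyrosol floor (edgeR, adjusted p = 0.00041). Among the genera that fell, it and unclassified Lactobacillaceae, which the rule for named genera does not include, were the 2 without overlap.

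Of 8 genera of Planococcaceae tested, 3 fell and 1 rose, beside 22.5% lower and 21.6% higher over all genera. Unclassified Planococcaceae took 0.0347% to 25.6% in control mice (median 7.28%) and 0.00443% to 0.196% in tyrosol mice (median 0.0333%), a log2 fold change of -7.55 ± 1.78 (edgeR, adjusted p = 0.0024). A single ASV held 81.9% of its control counts. Kurthia, an aerobic rod, took 0.0789% to 5.75% in control mice (median 2.54%) and was found in tyrosol mice 2 and 3 alone, with up to 0.242% (log2 fold change -5.50 ± 1.97, edgeR, adjusted p = 0.0297). Unidentified Planococcaceae fell by 4.57 ± 1.49 on the log2 scale (edgeR, adjusted p = 0.018). Of 3 genera of Enterobacteriaceae tested 1 fell, beside the same 22.5% over all genera, and the family did not pass the test (log2 fold change -3.12, edgeR, adjusted p = 0.115). Unclassified Enterobacteriaceae, the genus that differed, fell from 3.69% ± 7.13 to 0.0918% ± 0.0822 (n = 6, log2 fold change -5.95 ± 1.73, edgeR, adjusted p = 0.0104), and control mouse 1 had the most, 18.2%. The log2 fold change of the genus was -3.08 without control mouse 1 and -8.23 without tyrosol mouse 3.

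Ruminococcus, Adlercreutzia and Clostridium of the Clostridiaceae fell as well. Ruminococcus, of the Ruminococcaceae, took 0.00717% to 1.80% in control mice (median 0.817%) and 0.0122% to 0.0494% in tyrosol mice (median 0.0197%). Every control mouse but mouse 6 lay above every tyrosol mouse, and mouse 6 lay below them all (log2 fold change -4.60 ± 1.22, edgeR, adjusted p = 0.0057). Adlercreutzia, a Coriobacteriaceae genus known for making equol, fell from 0.649% ± 0.523 to 0.0458% ± 0.0518 (n = 6, log2 fold change -3.59 ± 1.44, edgeR, adjusted p = 0.0474), a call lost without control mouse 3 or tyrosol mouse 5 or 6. Clostridium of the Clostridiaceae was in all 6 control mice, at 4 to 189 counts, and had 7 counts in tyrosol mouse 6 alone (log2 fold change -6.39 ± 1.67, edgeR, adjusted p = 0.0053), without which it was at least 40.8-fold lower.

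Unidentified Coriobacteriaceae fell by 5.40 ± 1.62 (edgeR, adjusted p = 0.0128) and unidentified Erysipelotrichaceae by 4.65 ± 1.51 (edgeR, adjusted p = 0.018) on the log2 scale. The remaining 3 had 0 counts in every tyrosol mouse. Unidentified F16, small bacteria of TM7 that live on other bacteria, was at least 59.1-fold lower (edgeR, adjusted p = 0.0013), and 32.3-fold when control mouse 4 was left out. Unidentified Veillonellaceae was at least 18.9-fold lower (edgeR, adjusted p = 0.0033), and 9.32-fold when control mouse 4 was left out, and unidentified RF39 at least 11.2-fold lower (edgeR, adjusted p = 0.0041).

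The size of many fold changes depended on single mice, whereas no named family or genus that differed turned direction in the fits that tested it. F16, unidentified RF39, unidentified Veillonellaceae and Sporosarcina, which 4 mice at 10 or more counts brought into the test, were tested in 8 of the 12 fits. Without control mouse 4 the log2 fold change was 3.32 for Deferribacteraceae, 1.96 for Staphylococcaceae and -4.39 for Helicobacteraceae. Without control mouse 3 it was 6.67 for [Mogibacteriaceae] and -3.37 for S24-7, and without control mouse 5 it was 4.13 for unclassified Lactobacillales. Leaving out control mouse 6 gave 6.75 for Deferribacteraceae. Without tyrosol mouse 5 Rikenellaceae stood at -4.59 and Planococcaceae at -4.28, and without tyrosol mouse 6 Staphylococcaceae stood at 2.47.

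Among genera that rose, the log2 fold change over the ways to leave out a mouse ran from 6.38 (control mouse 6) to 8.80 (control mouse 5) for unclassified Enterococcaceae and from 5.97 (tyrosol mouse 6) to 8.99 (control mouse 6) for Jeotgalicoccus. The range was 6.45 (tyrosol mouse 1) to 7.83 (control mouse 5) for Clostridium of the Erysipelotrichaceae and 4.63 (control mouse 2) to 5.98 (tyrosol mouse 6) for unidentified [Mogibacteriaceae]. Without tyrosol mouse 6 it was lowest for 4 further genera, at 4.51 for Salinicoccus, 4.62 for Macrococcus, 3.44 for Mucispirillum and 3.12 for unclassified Staphylococcaceae. Without control mouse 6 it was 5.99 for Mucispirillum, 5.09 for [Ruminococcus] and 1.75 for unclassified Lactobacillales. For unidentified Desulfovibrionaceae it stayed between 2.79 and 3.49.

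Among genera that fell, the lowest value came without control mouse 6 for Lactobacillus (-4.11), Odoribacter (-4.16), Adlercreutzia (-4.50), Lactococcus (-5.47), Ruminococcus (-5.56) and unidentified Planococcaceae (-5.82). Without tyrosol mouse 3 Kurthia stood at -8.20, and without tyrosol mouse 4 [Prevotella] stood at -6.78, unidentified S24-7 at -5.04 and unidentified Erysipelotrichaceae at -5.61. Leaving out control mouse 2 gave -3.22 for [Prevotella] and -7.45 for Clostridium of the Clostridiaceae. Unidentified Coriobacteriaceae reached -6.84 without tyrosol mouse 1 and unclassified Planococcaceae -8.96 without tyrosol mouse 2.

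Some calls of named taxa also depended on the settings of the test. Those of Staphylococcaceae and unclassified Lactobacillales, as a family and as a genus, were lost with library totals in place of TMM scaling (edgeR, adjusted p = 0.0586, 0.0569 and 0.067), and so was that of Odoribacter (edgeR, adjusted p = 0.0518). With centred log-ratios and limma the calls of Rikenellaceae (adjusted p = 0.0857), Adlercreutzia (0.077), Odoribacter (0.258), unclassified Lactobacillales as a genus (0.0643), unidentified Erysipelotrichaceae (0.0665) and unidentified Planococcaceae (0.114) were lost. Without a filter those of Helicobacteraceae and Planococcaceae and of Adlercreutzia, Lactobacillus, Odoribacter, unidentified Desulfovibrionaceae and unclassified Lactobacillales were lost, with edgeR adjusted p from 0.0507 to 0.111. Without the listed aerobes the calls of Deferribacteraceae (edgeR, adjusted p = 0.067) and Staphylococcaceae (edgeR, adjusted p = 0.141) were lost. In a fit with all 30 mice, those of Planococcaceae (edgeR, adjusted p = 0.133), Staphylococcaceae (0.0654) and Kurthia (0.0669) were lost.

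In 4 of the 16 families with 2 or more genera tested, genera moved in both directions, beside 21.6% higher and 22.5% lower over all genera. Coriobacteriaceae held Collinsella, which rose, and Adlercreutzia and unidentified Coriobacteriaceae, which fell, and the family as a whole did not pass the test (log2 fold change 2.27 ± 1.08, edgeR, adjusted p = 0.106). In Erysipelotrichaceae, 3 of 6 genera tested rose and 1 fell. In Planococcaceae, Sporosarcina rose and 3 genera fell. In Ruminococcaceae, Subdoligranulum rose and Ruminococcus fell, with a log2 fold change of 0.36 for the family (edgeR, adjusted p = 0.795).

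The study names 13 genera, of which Fusobacterium had no count in the 12 mice, and since it chose them on these samples their counts are not independent evidence. Akkermansia, Collinsella, Jeotgalicoccus and Sporosarcina rose, and Kurthia, Lactobacillus and Ruminococcus fell, 4 and 3 of 13 entries tested, beside 21.6% higher and 22.5% lower over all genera. Acinetobacter, an aerobic genus of soil and water, took the most counts of any genus and did not pass the test. It took 0.0453% to 55.4% in control mice (median 9.98%) and 1.05% to 75.7% in tyrosol mice (median 60.2%), with a log2 fold change of 0.37 ± 1.47 (edgeR, adjusted p = 0.908). Leaving out 1 mouse gave -0.63 (tyrosol mouse 3) to 1.31 (control mouse 1), with 8 of 12 values below 0. Both groups held mice with little and mice with much of it. Acinetobacter led in tyrosol mice 2 to 5, with 59.6% to 75.7%, and in control mice 1 and 6, with 47.3% and 55.4%.

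Shigella took 0.0097% to 21.2% in control mice (median 1.26%) and 0.0318% to 3.86% in tyrosol mice (median 0.276%, log2 fold change -3.79 ± 1.76, edgeR, adjusted p = 0.089). Oscillospira took 0.689% ± 0.645 and 1.22% ± 0.406 (n = 6, log2 fold change 1.30 ± 0.98, edgeR, adjusted p = 0.311). These 2 genera, Acinetobacter, Enterococcus and both Staphylococcus entries were those that did not pass. Shigella passed without tyrosol mouse 5 (log2 fold change -5.57, edgeR, adjusted p = 0.0262) and with DESeq2 (adjusted p = 0.0334), as did Staphylococcus of the Planococcaceae with DESeq2 (adjusted p = 0.0334). With 1 mouse left out the log2 fold change ran from 0.21 (control mouse 6) to 2.78 (control mouse 5) for Enterococcus, from 0.43 (tyrosol mouse 6) to 2.64 (tyrosol mouse 5) for Staphylococcus of the Staphylococcaceae and from 0.33 (control mouse 6) to 1.39 (tyrosol mouse 6) for Oscillospira. A p that misses the threshold does not show that they were equal.

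Of 442 ASVs tested, 196 differed (44.3%), 85 higher (19.2%) and 111 lower (25.1%) in tyrosol mice. The shares of 50 did not overlap (11.3%), 40 of them among those that rose and 5 among those that fell. The median log2 fold change over all ASVs was -0.76 with TMM scaling, 0.20 with library totals and 0.56 with DESeq2 size factors, so ASV changes are read relative to that shift. The count depended on single mice. It was 237 without control mouse 6, 125 without control mouse 2, 130 without control mouse 3 and 119 without control mouse 4 or 5.

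The calls of ASVs by family are a description. An ASV could enter the test through 1 group alone, as 98 of the 442 did with no tyrosol mouse at 10 counts and 87 with no control mouse at 10 counts, and such ASVs had to differ in level. Of 66 S24-7 ASVs tested, 54 fell and none rose, and 51 of the 66 had no tyrosol mouse at 10 counts. Of 127 ASVs of Moraxellaceae, the family of Acinetobacter, 2 rose and 2 fell. Staphylococcaceae had 19 of 30 higher and Enterococcaceae 20 of 24 higher and 1 lower, and 15 and 20 of these tested ASVs had no control mouse at 10 counts. Within Enterococcus, which did not pass the test as a genus, 8 of 10 ASVs rose and 1 fell. Planococcaceae had 10 of 19 lower and 1 higher, Coriobacteriaceae 10 of 14 lower and 2 higher, and Lactobacillaceae 7 of 19 lower and 1 higher. Of these tested ASVs, 8, 10 and 6 had no tyrosol mouse at 10 counts. In Erysipelotrichaceae 5 of 140 ASVs entered the test, none with a control mouse at 10 counts, and the 5 were called higher. Helicobacteraceae, which fell as a family, had 2 of 4 ASVs higher and 2 lower. Of these 4, 2 had no control mouse at 10 counts and 1 no tyrosol mouse at 10 counts.

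The ASVs named here were taken, by fitted fold change, from those without overlap, and fitted values against a group at 0 do not order them by size. Each had adjusted p = 0.0032 by edgeR. Akkermansia muciniphila ASV_7902 had 0 counts in control mice and 35 to 3272 in tyrosol mice, at least 249-fold higher (136-fold without the highest mouse). Collinsella stercoris ASV_11531 had 3 counts in control mouse 6 and 950 to 5786 in tyrosol mice, a ratio of 4168 (95% interval 1426 to 20211), and at least 651-fold higher without control mouse 6. An unidentified Oscillospira, ASV_5657, had 0 counts in control mice and 16 to 1533 in tyrosol mice, at least 124-fold higher. It had 10 counts in 1 model mouse and none in the other 5 (tyrosol against model, edgeR, adjusted p = 0.0138). Oscillospira as a genus did not pass the test.

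Of the 6 ASVs named for their rise, 3 belonged to unclassified Enterococcaceae. ASV_81202 had 111 to 864 counts in tyrosol mice and 0 in control mice, at least 105-fold higher, and ASV_43459 had 78 to 414, at least 54.7-fold higher. ASV_1360 had 71 to 479 in tyrosol mice and 0 in every control and model mouse, at least 57.1-fold above the control floor (tyrosol against model, edgeR, adjusted p = 0.0099). It entered the test against model mice through tyrosol mice alone, so that p is a description. The calls of these 3 ASVs against control mice were lost without a filter (edgeR, adjusted p = 0.0505, 0.0686 and 0.0686).

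All 5 ASVs named for their fall had 0 counts in every tyrosol mouse and were present in all 6 control mice. Of these, 3 belonged to S24-7. ASV_11856 had 14 to 4330 counts in control mice, at least 538-fold lower with tyrosol (307-fold without control mouse 3). ASV_8842 had 12 to 2057, at least 395-fold lower (152-fold without control mouse 4). ASV_38503 had 7 to 1481, at least 265-fold lower. The ASV of unclassified Helicobacteraceae, ASV_77217, is described above, and an unidentified Lactobacillus, ASV_22399, had 12 to 148 counts, at least 36.0-fold lower (23.8-fold without the highest), and its call was lost without a filter (edgeR, adjusted p = 0.0686).

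Few ASVs separated every mouse of the groups. There were 40 ASVs in all 6 tyrosol mice and no control mouse, which took 5.30% of tyrosol counts, and 16 of them had no count in any model mouse. Unclassified Enterococcaceae held 10 of the 40 and unclassified Lactobacillales 6. The 5 ASVs in all 6 control mice and no tyrosol mouse took 4.05% of control counts. With at least 5 mice of a group and none of the other, there were 102 ASVs on the tyrosol side, with 7.17% of tyrosol counts, and 40 on the control side, with 11.7% of control counts. The groups together shared 718 ASVs, 15.8% of the 4544 found in control mice and 26.2% of the 2744 found in tyrosol mice. These shared ASVs held 62.9% of control and 86.3% of tyrosol counts.

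By oxygen requirement, genera were grouped into lists, each set here beside a median log2 fold change of 0.04 over all 102 genera, of which 21.6% rose and 22.5% fell. Summed shares take in every listed genus or family found, tested or not. Of 27 listed obligate anaerobes tested, 10 rose and 8 fell (median 0.16), and the summed share of the list was 7.82% ± 6.00 in control and 10.5% ± 5.52 in tyrosol mice (n = 6). Of 16 facultative anaerobes, Jeotgalicoccus and Macrococcus rose and Lactobacillus and Lactococcus fell (median 1.23). Of 11 obligate aerobes, Sporosarcina rose and Kurthia fell (median 0.37), and the share of the list was 24.8% ± 25.5 in control, 49.2% ± 30.8 in tyrosol and 66.8% ± 16.3 in model mice (n = 6). Sequences named as plant organelles had no count in control mice and a mean of 0.00063% in tyrosol mice.

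By function and order, 2 of 3 mucus-associated genera tested rose, Akkermansia and Mucispirillum (median 4.41), and the summed share of the list was 0.466% ± 0.453 and 1.69% ± 1.64 (n = 6). The other genus tested, Helicobacter, did not pass the test, and unclassified Helicobacteraceae, which fell, is not on the list. Of 2 butyrate-producing genera tested, Odoribacter fell (median -1.38), and Subdoligranulum, which rose, is not on that list. The share of the 7 listed was 0.981% ± 0.969 and 0.157% ± 0.158 (n = 6). Of 7 Bacteroidales families tested, 3 fell and none rose (median -3.81 beside 0.12 for all 57 families, of which 12.3% rose and 14.0% fell), and the share of the 8 listed was 21.2% ± 19.3 in control, 1.38% ± 1.25 in tyrosol and 0.671% ± 0.699 in model mice (n = 6). Of 8 Clostridiales families, Christensenellaceae, [Mogibacteriaceae] and Eubacteriaceae rose and Clostridiaceae fell (median 2.30), with shares of the 10 listed of 2.92% ± 2.95 and 4.71% ± 2.58 (n = 6).

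Values of model mice place these differences beside those of the diet with saline. S24-7 took 0.252% ± 0.228 in model mice (n = 6; model over control, log2 fold change -4.90 ± 1.46, edgeR, adjusted p = 0.0178), and tyrosol over model gave 1.17 ± 0.94 (edgeR, adjusted p = 0.413). Jeotgalicoccus took 4.32% ± 3.71 in model mice (n = 6; model over control, 5.07, edgeR, adjusted p = 0.0368; tyrosol over model, 1.32, adjusted p = 0.501). Unclassified Enterococcaceae took 0.33% (model over control, 5.02, edgeR, adjusted p = 0.0378; tyrosol over model, 2.20, adjusted p = 0.191). Clostridium of the Erysipelotrichaceae took 0.175%, and tyrosol over model gave 2.96 ± 1.22 (edgeR, adjusted p = 0.177). Lactobacillus took 1.54% ± 0.964 and unclassified Planococcaceae 0.164% in model mice (n = 6). Enterococcus took 3.68% ± 3.72 in model mice, beside 0.547% in tyrosol mice (n = 6), and tyrosol over model gave -3.00 ± 1.12, which did not pass the test (edgeR, adjusted p = 0.177).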

How the data were processed

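Feces were collected and 16S rRNA gene amplicons sequenced by the authors, whose processing notes name cutadapt. The labels give the molecule as total RNA, while the extraction text describes DNA. The counts are those the authors deposited, whole-number reads per ASV and mouse after denoising, merging, chimera removal and removal of singletons, in a filtered and an even-depth table. The taxonomy release is not given in the sources used here.

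Counts were summed to family and genus by deposited names. A taxon was tested where 4 or more of the 12 mice had 10 or more counts of it, with edgeR 4.0.16 (TMM, quasi-likelihood, R 4.3.3), Benjamini-Hochberg adjusted. Diversity, phyla and distances used exact two-sided permutation tests (scipy 1.17.1). Mice are the replicates. The scripts were tested on simulated data. Alternatives were DESeq2 1.42.0, centred log-ratios with limma 3.58.1, no TMM, other filters, other tables, other distances, a replicate block and leaving out each mouse. Named families and genera are those called with a mean share of at least 0.1%, plus up to 4 others with the largest rise and 4 with the largest fall. Up to 6 ASVs a direction without overlap were named. The members and lists were chosen with earlier results of these data known. A fold against a group at 0 uses a floor of 3 counts per mouse.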

Additional observations from a re-analysis of the deposited data

Results flagged for a closer look

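Within a group of 6 mice, a single mouse stood far from the others in 13 of 137 groups examined on the log2 scale of shares. Chance gives about 1 in 20 where values are normally distributed. In some of the 13 groups only 1 mouse had counts, so that rate does not apply to them. The value is the gap of that mouse to its nearest neighbour as a share of the whole range of the group.

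Among tyrosol mice, the lowest mouse stood apart for Proteobacteria (0.639), Acinetobacter (0.667) and Enterococcus (0.635), and the highest for Prevotellaceae (0.828), Clostridiaceae (0.927) and Clostridium of the Clostridiaceae (0.927). Among control mice, the lowest stood apart for Rikenellaceae (0.825) and Rikenella (0.862), and the highest for unclassified Lactobacillales as a family and as a genus (0.753), Eubacteriaceae (0.701), Macrococcus (0.737) and Salinicoccus (0.826). Eubacteriaceae were in control mouse 5 alone and Macrococcus in control mouse 6 alone.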

How the results depend on the processing

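No named taxon that differed changed direction under any alternative that tested it, but calls were lost: without TMM 2 families and 2 genera, with centred log-ratios 1 and 5, without a filter 2 and 5 and 4 of 11 ASVs, with the unfiltered table used 1 and 1, with the even-depth table used 1 family, without the listed aerobes 2 families, with all 30 mice 2 and 1, and at a minimum of 50 counts 1 genus. Acinetobacter, which did not pass, ran from -0.63 (without tyrosol mouse 3) to 1.31 (without control mouse 1), with 8 of 12 values below 0. At genus level the differences were -0.27 for Shannon (p = 0.422), -0.135 for Simpson (p = 0.0974), -0.0537 for Pielou (p = 0.299) and, in the opposite direction to ASVs, 28.8 for Chao1 (p = 0.00866), -0.00021 for Good's coverage (p = 0.0152) and 18 for the number observed (p = 0.0216), by exact permutation tests. Without the listed aerobes they were -0.0389 for Shannon (exact permutation p = 0.933), -319 for observed ASVs (p = 0.0584), -0.112 for the spread (p = 0.013), -18.8 for Bacteroidetes (p = 0.0714) and, with the sign turned, 0.0120 for Simpson (p = 0.639), 0.0324 for Pielou (p = 0.457), -0.00385 for Good's coverage, 25.1 for Firmicutes (p = 0.0022) and -16.9 for Proteobacteria. Rarefied to 10000 counts, Chao1 differed by -302 (exact permutation p = 0.013) and Good's coverage by 0.00836 (p = 0.00866). The spread differed by -0.0589 with Jaccard distances (exact permutation p = 0.026) and -0.104 on square-root shares (p = 0.0303), and Bacteroidetes by -4 mean ranks (p = 0.0649). The causes were not tested.

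Families called were 28 with DESeq2 (11 higher, 17 lower) and 25 without a filter. ASVs called were 31 without a filter (4 higher, 27 lower), 69 at a minimum of 50 counts (36 and 33), 120 in the even-depth table (41 and 79) and 202 with DESeq2 (101 and 101). Genera called ranged from 30 (minimum of 50 counts) to 57 (no filter).

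The replicate numbers did not pair the mice: correlations of same-numbered deviations ran from -0.327 to 0.484, and 1 of 6 pairs was over 0.1. With the replicate block, 12 families, 32 genera and 67 ASVs were called (5 of 15 named families, 12 of 38 genera and 0 of 11 ASVs were no longer called), Chao1 differed by -288 (exact permutation p = 0.0313), the spread by -0.124 (p = 0.0313), and R2 was 0.318 (p = 0.0625).

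Leaving out 1 mouse gave differences of -1.26 to -0.93 for Shannon, -0.076 to -0.0553 for Simpson, -0.0983 to -0.0702 for Pielou, -351 to -228 for Chao1 (past the threshold without control mouse 1 or 6), -344 to -256 for observed ASVs, 0.000952 to 0.00218 for Good's coverage, -0.198 to -0.0852 for the spread (past it without tyrosol mouse 3 or 6), -11.2 to 3.47 for Firmicutes (above 0 without control mouse 2, 1.94, 3, 0.913, or 4, 0.999, or tyrosol mouse 2, 1.55, 3, 3.47, 4, 3.15, or 5, 1.56), -24.3 to -16.4 for Bacteroidetes, 10.2 to 26.2 for Proteobacteria, 2.79 to 3.78 for Actinobacteria and 0.685 to 1.44 for Verrucomicrobia. R2 ran from 0.300 to 0.400. Verrucomicrobia had an exact permutation p = 0.0628 without any 1 control mouse. With a doubled one-sided exact p, chosen after seeing the data because 5 against 6 mice are unbalanced, Verrucomicrobia had p = 0.0043 in all 12 and Bacteroidetes p from 0.00866 to 0.0563, above 0.05 without control mouse 2 (-16.9), 3 (-16.4), 4 (-16.5) or 5 (-22.4) or tyrosol mouse 6 (-19.8). Calls ran from 8 to 26 families, 37 to 55 genera and 119 to 237 ASVs. Of named taxa tested in all 12 such fits, 7 of 13 families, 25 of 34 genera and 11 of 11 ASVs stayed called in each, as did 2 families and 4 genera in the 8 fits that tested them. Depth limits shares to above 0.00281% to 0.00717% per mouse.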
